A study of Mus musculus with 16 samples.

Results

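A set of 40 genes that remodel, acetylate or read chromatin were chosen by name, and every transcript row carrying one of these gene names was taken from the hippocampal expression table. Of the 40 genes, 39 had rows, out of 18287 named genes in all, and they held 280 of 80137 transcripts. Smarca1, the second ISWI ATPase on the list, was not analysed here. The 39 genes comprised 13 subunits of the SWI/SNF complexes (BAF and PBAF), the ISWI ATPase Smarca5, 9 CHD remodelers, 9 acetyltransferases, the SWR1-type ATPase Ep400, the BET readers Brd2 and Brd3, and 4 corepressors. No measured value entered the choice, although earlier results of these data were known when the genes were listed.

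The mice were male C57BL/6 animals of 3 months, and the RNA was total RNA of the hippocampus of both sides, with 1 library per mouse and 4 mice in each of 4 groups. Homecage mice (HC) received neither shocks nor tests. Control mice (Ctrl) were placed in the shuttle box without inescapable shock and then given 30 escape trials at 0.4 mA. Non-helpless (NLH) and helpless (LH) mice both received 180 inescapable shocks of 0.4 mA and, 24 h later, the same 30 escape trials, and they were told apart by clustering of their escape failures and latencies, so that NLH and LH are classes of behaviour and not of treatment. Hippocampi were collected 3 h after testing. Values are FPKM (fragments per kilobase of transcript, scaled to the mapped fragments of the library), and a gene sum is the FPKM of all transcripts that carry the gene's name.

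SWI/SNF, ISWI, CHD and SWR1-type enzymes spend ATP to slide, evict or exchange nucleosomes. Acetyltransferases add acetyl groups to histones, BET proteins bind acetylated histones through bromodomains, and corepressors such as Ncor1, Sin3a and Rcor1 bring histone deacetylases to genes. In neurons, BAF contains dedicated subunits such as Actl6b (BAF53b), and Crebbp (CBP) is a coactivator of CREB that is widely studied in memory.

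Several members are made as alternative transcripts, and the following coding stretches are shown because they mark the coding transcripts of 3 members whose group values are given further on. All were read from GENCODE vM21 transcripts (build GRCm38, the same as mm10). The first 2 lines give the coding ends of 2 full-length transcripts of Chd5, a neuronal CHD remodeler, which share their first 5736 coding bases. The capitals mark the coding bases that follow the shared part, which lie within chr4:152385724-152385953 (plus strand) in the first and chr4:152385949-152386962 in the second. The 2 intervals overlap in 5 bases, which both transcripts contain but read in different frames.
Chd5 ENSMUST00000030775.11: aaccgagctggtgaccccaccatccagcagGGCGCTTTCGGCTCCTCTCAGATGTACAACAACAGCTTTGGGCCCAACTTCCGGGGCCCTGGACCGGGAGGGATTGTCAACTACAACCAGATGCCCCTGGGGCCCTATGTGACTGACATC
Chd5 ENSMUST00000005175.4: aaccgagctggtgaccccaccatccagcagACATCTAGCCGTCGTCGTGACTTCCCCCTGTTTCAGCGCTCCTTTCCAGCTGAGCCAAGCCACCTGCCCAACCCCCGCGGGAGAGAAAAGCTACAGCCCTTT
Smarca2 (BRM) is a catalytic ATPase of SWI/SNF. A short coding transcript of this gene, 709 bases long, begins coding at base 4042 of the 4749 coding bases of a full-length form. All its 605 coding bases are contained in that form. As 605 is not a multiple of 3, its annotated reading frame is incomplete. The first 60 coding bases of the short transcript are shown with the start codon in capitals, at chr19:26751851-26751853 (plus strand). They also lie in the full-length form and do not tell the short transcript apart from it.
Smarca2 ENSMUST00000177252.8: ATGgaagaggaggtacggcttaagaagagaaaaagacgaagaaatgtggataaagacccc
Arid1b is a DNA-binding subunit of BAF. Its transcripts start at different codons, at chr17:4994939-4994941 and chr17:4996451-4996453 (plus strand, capitals), and share their last 3612 coding bases.
Arid1b ENSMUST00000092723.10: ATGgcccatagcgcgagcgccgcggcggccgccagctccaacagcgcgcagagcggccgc
Arid1b ENSMUST00000115799.1: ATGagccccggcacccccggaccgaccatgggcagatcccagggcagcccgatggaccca

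Depth was read from the steps of low FPKM values as between 20.2 (LH 4) and 38.0 (Ctrl 2) M fragments per mouse. Mice LH 3 and LH 4 stood apart: 10846 and 15504 transcripts were at 0 in them, against 4872 to 7352 in the other 14 mice, so several LH results are also given without both. Summed FPKM ran from 120208 to 158004. Markers of neurons summed to between 741 and 1043 FPKM and those of astrocytes to between 290 and 432 FPKM. The oligodendrocyte list ran from 265 to 515 FPKM, both in LH mice, and averaged 384 FPKM in Ctrl and 451 FPKM in NLH. Red blood cell markers ran from 144 to 459 FPKM and microglial ones from 25.8 to 39.5 FPKM. The choroid plexus list, of which 3 of 6 genes were at 0 in some mouse, summed to 1.59 to 84.1 FPKM, and the endothelial list to 4.13 to 13.8 FPKM, highest in LH 4. There 10.6 FPKM of it was Flt1, while Tek (0.776 FPKM) was lowest of all mice and Pecam1 (1.18 FPKM) above LH 3 only. Both the endothelial and the striatal list separated groups: endothelial sums were 6.51 to 7.83 FPKM in NLH and 5.25 to 6.16 FPKM in Ctrl, and striatal sums 10.2 to 12.8 FPKM in LH and 8.06 to 9.54 FPKM in Ctrl. The part of these lists in the results was not tested. In bulk tissue, fewer cells of a type and less RNA per cell cannot be told apart.

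All 39 members passed the filter of a mean gene sum of at least 1 FPKM. By mean gene sum they ran from Chd9 at 42.7 FPKM, Smarca2 at 35.9 FPKM and Ncor1 at 33.2 FPKM down to Smarce1 at 2.04 FPKM and Chd7 at 1.70 FPKM. The leaders of the other classes were Brd2 at 23.8 FPKM, Kat6b at 13.3 FPKM, Smarca5 at 10.2 FPKM and Ep400 at 6.97 FPKM.

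**Figure D1:**
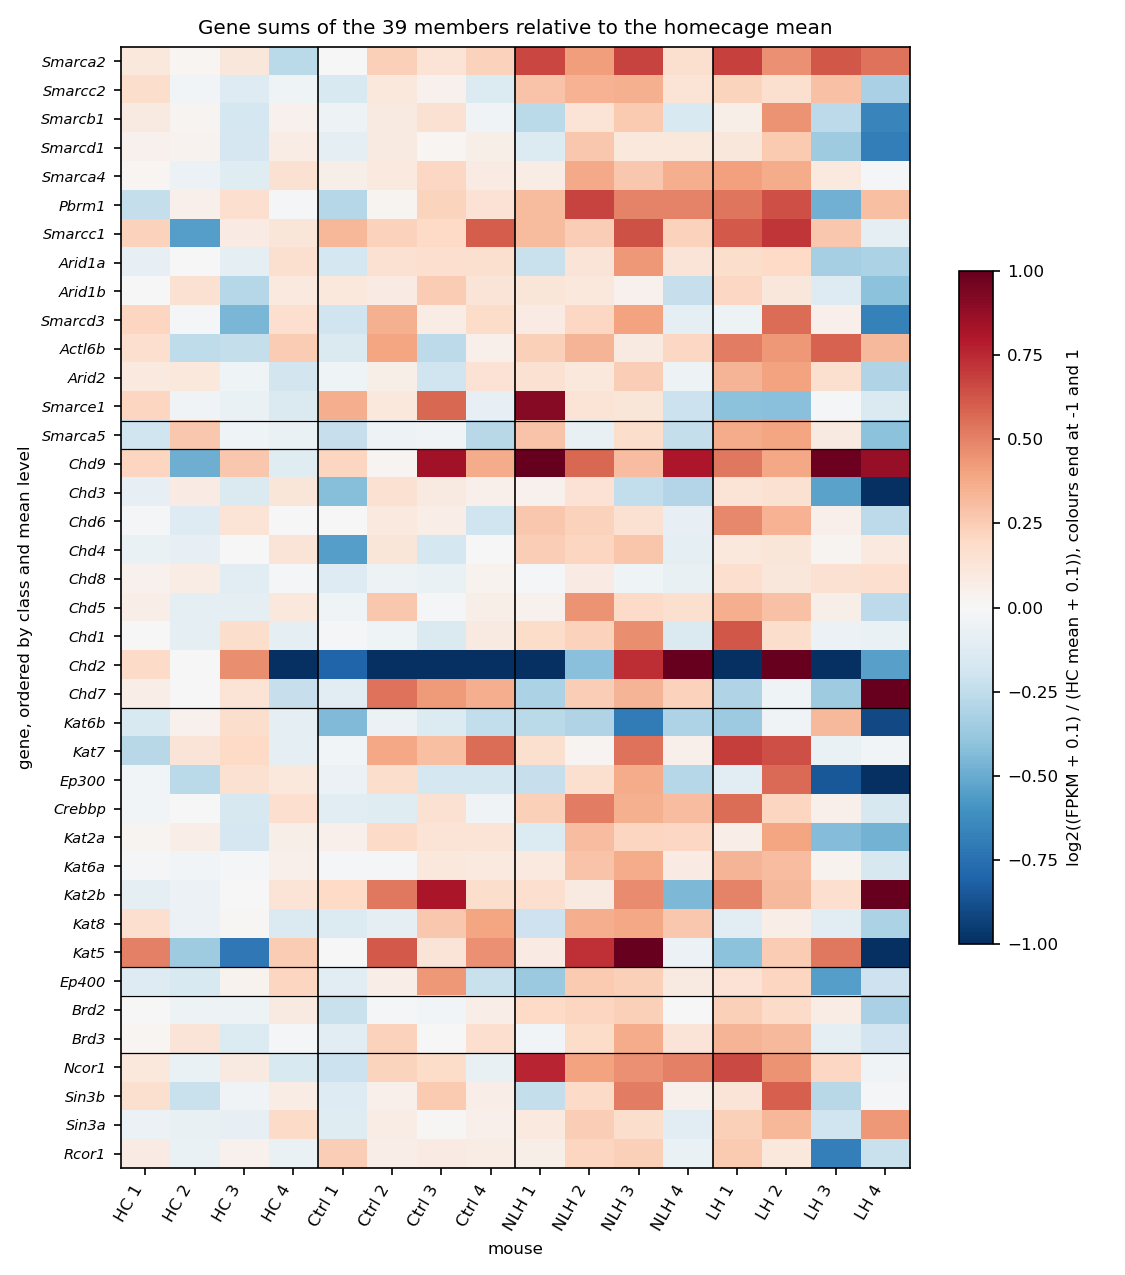
Gene sums of the 39 members (rows, by class and level) in the 16 mice (columns), as log2 of the value over the homecage mean, each with 0.1 FPKM added. Smarca2 and Ncor1 are above the homecage mean in the 4 NLH mice, Chd2 is scattered in NLH and LH, and LH 3 and LH 4 hold most of the dark blue cells of the LH group.

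The members were compared by limma on log2(gene sum + 0.1) over all 16 mice. No member passed an adjusted p of 0.05 in any of the 4 comparisons. Over all 10436 genes tested, 5 did so in LH vs. Ctrl (0.0479%), 1 in LH vs. NLH (0.00958%) and 0 elsewhere. At an unadjusted p under 0.05, none of the 39 members differed in Ctrl vs. HC, where 2.35% of all genes did (1.65% higher, 0.7% lower). In NLH vs. Ctrl, 6 members did (15.4% of 39), all higher in NLH, beside 7.18% of all genes (6.32% higher, 0.853% lower). In LH vs. Ctrl there were 4 members (10.3%), 3 higher and 1 lower, beside 13.8% (10.4% higher, 3.33% lower). The comparison of LH with NLH gave 2 members (5.13%), 1 higher and 1 lower, beside 6.89% (3.18% higher, 3.71% lower). The median log2 difference of the members was 0.10 in NLH vs. Ctrl and 0.04 in LH vs. Ctrl, against 0.08 and 0.03 over all genes.

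The 6 members higher in NLH were Ncor1, Crebbp, Smarca2, Smarcc2, Chd4 and Pbrm1. In 4 of them (10.3% of the members) the NLH and Ctrl mice did not overlap, which held for 8.07% of all genes. After median-ratio scaling of the mice, 6 members again had an unadjusted p under 0.05, 5 higher and 1 lower, beside 9.69% of all genes. The direction of the background depended on this scaling: in NLH vs. Ctrl it went from 660 genes higher and 89 lower to 537 and 474, and in LH vs. Ctrl from 1090 and 348 to 1144 and 975. The 6 members also rested on single mice: without Ctrl 1 there were 2 (beside 4.61% of all genes), and without NLH 2 or NLH 3 there were 3 (beside 5.06% and 4.92%). With the scaling, 7 members in LH vs. Ctrl had an unadjusted p under 0.05, 3 higher and 4 lower, beside 20.3% of all genes. Without LH 3 and LH 4, 17 members differed in LH vs. Ctrl (15 higher, 2 lower), beside 35.0% of all genes, and 5 of them (12.8% of 39) had an adjusted p under 0.05 in limma, beside 14.5% of all genes. These 5, chosen after the values were seen, were Ncor1, Pbrm1, Chd6, Smarca5 and Crebbp, with log2 differences of 0.52, 0.56, 0.42, 0.53 and 0.41. In LH vs. NLH, 4 members (10.3%) then had an unadjusted p under 0.05, beside 20.5% of all genes. Without LH 3 and LH 4, the median gene of the whole table also stood 0.24 higher in LH than in Ctrl (log2).

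**Figure D2:**
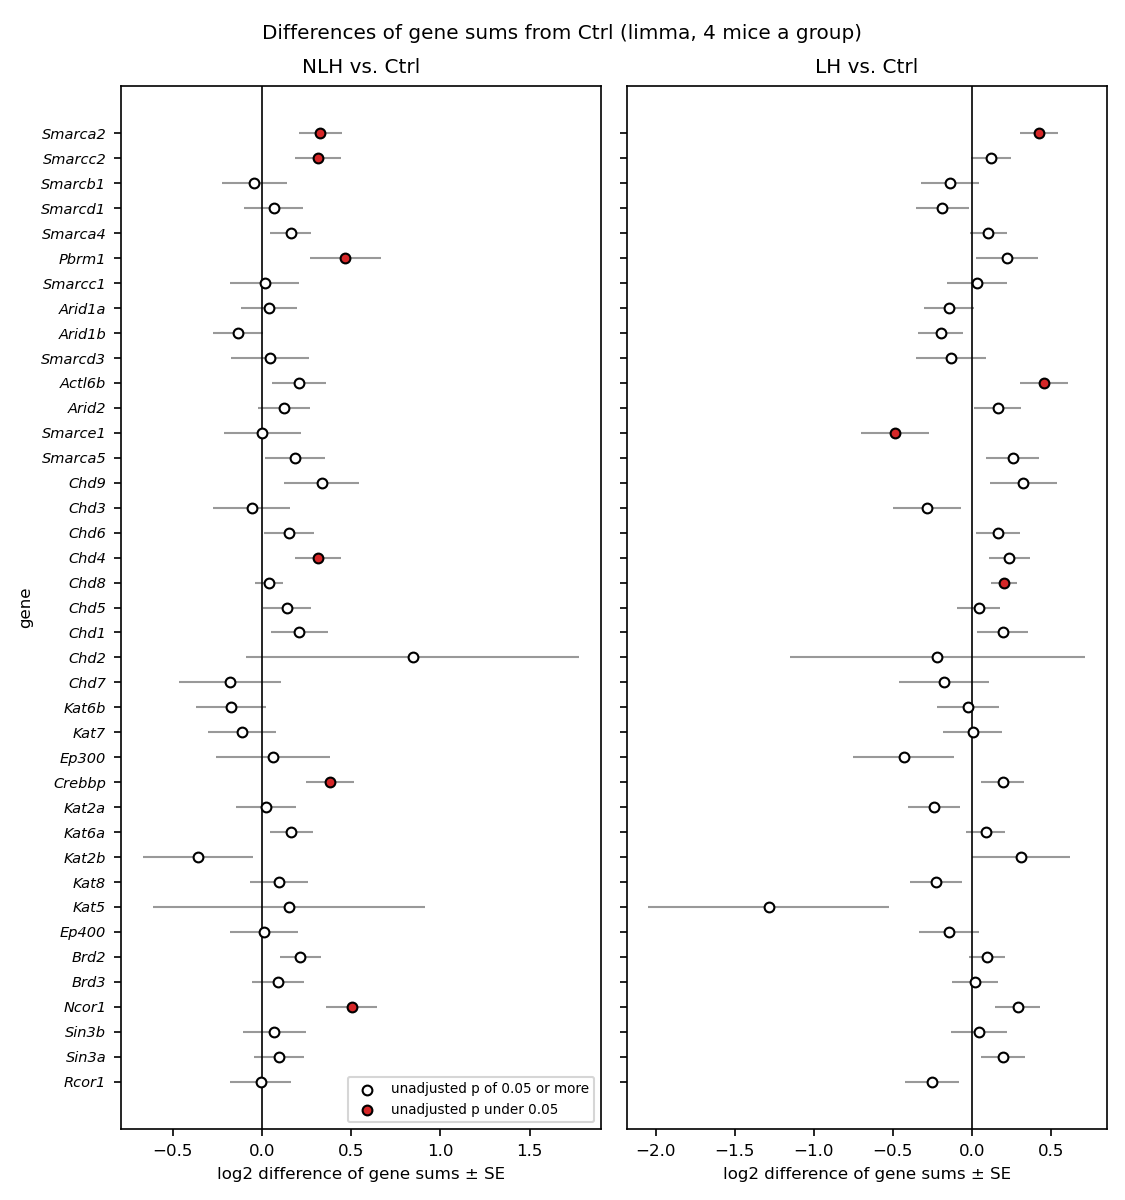
Log2 differences of gene sums from Ctrl with their standard errors, for NLH (left) and LH (right), 4 mice a group. Filled points have an unadjusted p under 0.05: 6 members in NLH, all to the right of 0, and 4 in LH, with Smarce1 to the left.

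Among the 13 SWI/SNF subunits, 3 had an unadjusted p under 0.05 in NLH vs. Ctrl (Smarca2, Smarcc2 and Pbrm1), beside 7.18% of all genes, and 3 in LH vs. Ctrl (Smarca2, Actl6b and Smarce1), beside 13.8%. Smarca2 had gene sums of 30.8, 28.9, 30.9 and 23.8 FPKM in HC and of 28.7, 33.7, 31.4 and 33.6 FPKM in Ctrl. In NLH they were 45.4, 38.2, 45.7 and 31.9 FPKM and in LH 46.0, 39.2, 44.0 and 41.7 FPKM. All 4 LH mice lay above all Ctrl and HC mice, and NLH overlapped Ctrl through NLH 4. The difference from Ctrl was 0.42 ± 0.12 (log2, SE) in LH, a 1.34-fold level with an adjusted p of 0.137 in limma, and 0.33 ± 0.12 in NLH with an adjusted p of 0.507. It was 0.42 in LH without LH 3 and LH 4, with an adjusted p of 0.0612.

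The short Smarca2 transcript shown above, picked out after its values were seen, differed by about as much as the whole gene. It stood at 4.61, 5.10, 7.26 and under 0.001 FPKM in HC and at 0.00245, 3.91, 2.94 and 1.06 FPKM in Ctrl. In NLH it stood at 10.6, 11.4, 13.0 and 8.37 FPKM and in LH at 12.3, 6.88, 14.3 and 18.8 FPKM. No NLH or LH mouse overlapped a Ctrl mouse, although HC 3 lay above LH 2. Without this transcript the Smarca2 sum was 24.3 ± 1.2 FPKM in HC mice, 29.9 ± 1.9 FPKM in Ctrl, 29.5 ± 5.2 FPKM in NLH and 29.7 ± 4.8 FPKM in LH (SD, n = 4). The HC mice, at 23.6 to 26.2 FPKM, were all below the Ctrl mice, at 28.4 to 32.6 FPKM. By shares of the gene, the short transcript averaged 14.0% in HC mice, 6.04% in Ctrl, 26.9% in NLH and 30.4% in LH, with adjusted p-values of 0.834 for NLH and 0.288 for LH in limma against Ctrl. Over LH 1 and LH 2 alone the LH share averaged 22.2%. The full-length coding transcripts together averaged 7.26 FPKM in HC mice, 8.21 FPKM in Ctrl, 10.00 FPKM in NLH and 9.36 FPKM in LH. The short form carried an estimated 146 to 217 fragments in the NLH mice and 83.85 to 193 in the LH mice. It carried at most 75.8 in the Ctrl mice and at most 115 in the HC mice.

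**Figure D3:**
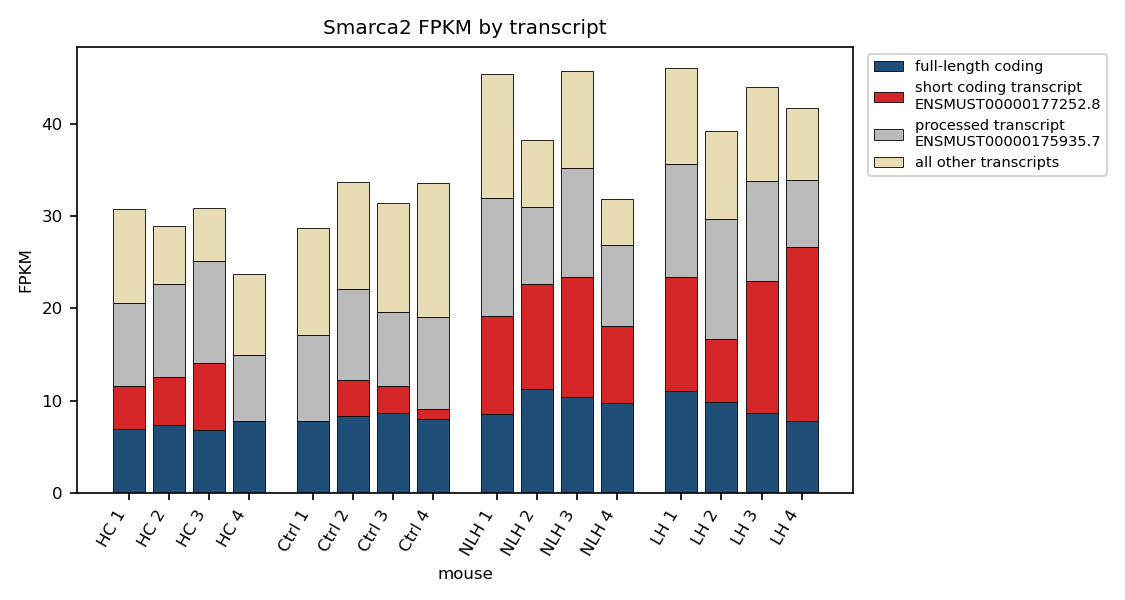
Smarca2 FPKM in each mouse, stacked by transcript: full-length coding, the short coding transcript, the most abundant processed transcript and all others. The red segment of the short transcript spans 6.88 to 18.8 FPKM in the 8 NLH and LH mice and at most 3.91 FPKM in the Ctrl mice. Its highest HC mouse lies above its lowest LH mouse.

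Actl6b, the neuronal actin-related subunit, had gene sums of 5.60, 4.15, 4.21 and 5.93 FPKM in HC, 4.48, 6.57, 4.12 and 5.16 FPKM in Ctrl and 5.87, 6.31, 5.31 and 5.76 FPKM in NLH. In LH they were 7.12, 6.76, 7.54 and 6.25 FPKM. Ctrl 2 alone among the controls reached the LH range. The LH difference from Ctrl was 0.46 ± 0.15 (log2, SE; adjusted p of 0.193 in limma) and 0.46 without LH 3 and LH 4 (0.0861). It was 0.23 when unnamed transcripts of the locus were added to the sum. Smarce1, an HMG-box subunit, pointed the other way: it measured 2.46, 2.04, 2.87 and 1.79 FPKM in Ctrl, 3.66, 2.10, 2.08 and 1.62 FPKM in NLH and 1.40, 1.39, 1.87 and 1.70 FPKM in LH. Its groups overlapped, and its difference was -0.49 ± 0.22 both against Ctrl and against NLH (adjusted p of 0.322 and 0.694). It was -0.65 in both without LH 3 and LH 4 (0.0864 and 0.186), and -0.25 against NLH with unnamed transcripts of the locus added (0.680). Only 3.03% of the Smarce1 sum came from full-length coding transcripts and 40.7% from a processed transcript of 3117 bases.

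Smarcc1, a scaffold subunit, was the member with the smallest p in Ctrl vs. HC. Its values were 6.40, 3.68, 5.77 and 5.95 FPKM in HC and 6.89, 6.39, 6.28 and 8.32 FPKM in Ctrl, overlapping in 1 HC mouse, with a difference of 0.37 ± 0.19 (adjusted p of 1.00 in limma), or 0.13 with unnamed transcripts of the locus added. Smarcc2, its paralog, averaged 11.3 ± 1.0 FPKM in Ctrl and 14.1 ± 1.0 FPKM in NLH (SD, n = 4), without overlap. Pbrm1, the bromodomain subunit of PBAF, averaged 6.02 ± 0.90 FPKM in Ctrl and 8.32 ± 0.85 FPKM in NLH, also without overlap, and in the LH mice it spread from 4.16 FPKM (LH 3) to 9.21 FPKM. Arid1a, Arid1b, Arid2, Smarca4, Smarcb1, Smarcd1 and Smarcd3 differed by between -0.20 and 0.16 from Ctrl in NLH and LH, and none had an unadjusted p under 0.05.

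Smarca5 (SNF2H), the catalytic ATPase of ISWI complexes, averaged 9.13 ± 0.78 FPKM in Ctrl, 10.5 ± 1.7 FPKM in NLH and 11.2 ± 2.7 FPKM in LH (SD, n = 4), with 13.2 FPKM over LH 1 and LH 2 alone. When only its full-length coding transcript was counted, an alternative added after seeing the data, the Ctrl mice stood at 5.08, 5.20, 5.46 and 5.58 FPKM and the LH mice at 8.10, 7.04, 7.12 and 6.87 FPKM. The LH mice were all above the Ctrl mice. That difference was 0.44 ± 0.12 (log2, SE), with an adjusted p of 0.139 in limma.

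Of the 9 CHD remodelers, Chd4 had an unadjusted p under 0.05 in NLH vs. Ctrl and Chd8 in LH vs. Ctrl. Chd8, a repressor of beta-catenin targets, was among the steadiest members. It measured 12.9, 13.2, 11.6 and 12.4 FPKM in HC, 11.45, 12.1, 11.9 and 12.8 FPKM in Ctrl, 12.3, 13.3, 12.2 and 11.9 FPKM in NLH and 14.0, 13.6, 13.9 and 14.1 FPKM in LH. All LH mice, LH 3 and LH 4 included, lay above every other mouse. The differences were small, 0.20 ± 0.08 against Ctrl and 0.16 ± 0.08 against NLH (log2, SE; adjusted p of 0.272 and 0.726 in limma). They were 0.19 and 0.15 without LH 3 and LH 4, and with full-length coding transcripts alone 0.01 and -0.05. Chd4, an ATPase of the NuRD complex, averaged 12.6 ± 2.4 FPKM in Ctrl and 15.6 ± 1.8 FPKM in NLH, and its value in Ctrl 1 was the lowest of all at 9.43 FPKM.

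Chd9 had the highest level of the class and the second smallest p in Ctrl vs. HC. It measured 35.4, 21.7, 36.6 and 27.95 FPKM in HC, 35.3, 31.0, 54.4 and 39.4 FPKM in Ctrl, 65.7, 45.2, 37.7 and 53.3 FPKM in NLH and 43.8, 39.8, 60.1 and 55.6 FPKM in LH. Every pair of groups compared overlapped, and LH 1 and LH 2 averaged 41.8 FPKM. Of the mean, 75.4% was a processed transcript of 759 bases, and full-length coding transcripts gave 4.79%. An estimated 238 to 855 fragments per mouse stood behind the former. In Chd6, a processed transcript of 616 bases held 58.8% of the sum, with an estimated 60.7 to 223 fragments per mouse. Chd2 was the least even member: it ranged from 0.0379 FPKM in LH 3 to 7.08 FPKM in NLH 4, and from 1.26 to 1.71 FPKM in Ctrl. Chd7, at 1.70 FPKM on average, read 3.53 FPKM in LH 4 and between 1.13 and 1.42 FPKM in the other LH mice.

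Chd5 had no unadjusted p under 0.05 by gene sum (9.02 ± 0.93 FPKM in Ctrl, 9.99 ± 1.22 FPKM in NLH and 9.40 ± 1.76 FPKM in LH), and a full-length transcript of it had the smallest p of any member transcript by share. The transcript with the first coding end printed above made up 7.63%, 0.0414%, 0.00654% and 6.05% of the gene in HC and 1.56%, 0.301%, 7.66% and 0.0240% in Ctrl. It made up 15.2%, 14.96%, 26.7% and 8.01% in NLH and 32.2%, 9.05%, 30.9% and 21.1% in LH. All 8 mice given inescapable shock exceeded all 8 HC and Ctrl mice. Limma on the log2 ratio of the transcript to the rest of its gene gave 3.53 ± 0.83 in LH vs. Ctrl (adjusted p of 0.138) and 2.93 ± 0.83 in NLH vs. Ctrl (adjusted p of 0.552). In LH vs. Ctrl it was 3.21 without LH 3 and LH 4 (adjusted p of 0.345). A pseudocount of 1 gave 1.64 in LH vs. Ctrl and 1.18 in NLH vs. Ctrl. In FPKM the transcript averaged 0.203 in Ctrl, 1.62 in NLH and 2.19 in LH. The second coding end, of ENSMUST00000005175.4, averaged 4.10 FPKM in Ctrl, 4.62 FPKM in NLH and 3.58 FPKM in LH. A processed transcript of Chd5, ENSMUST00000124423.1, was lower, with shares of 45.5%, 44.7%, 38.3% and 43.0% in Ctrl and of 23.0%, 28.4%, 22.1% and 38.9% in NLH. In NLH vs. Ctrl its log2 difference was -0.95 ± 0.31 (adjusted p of 0.670).

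**Figure D4:**
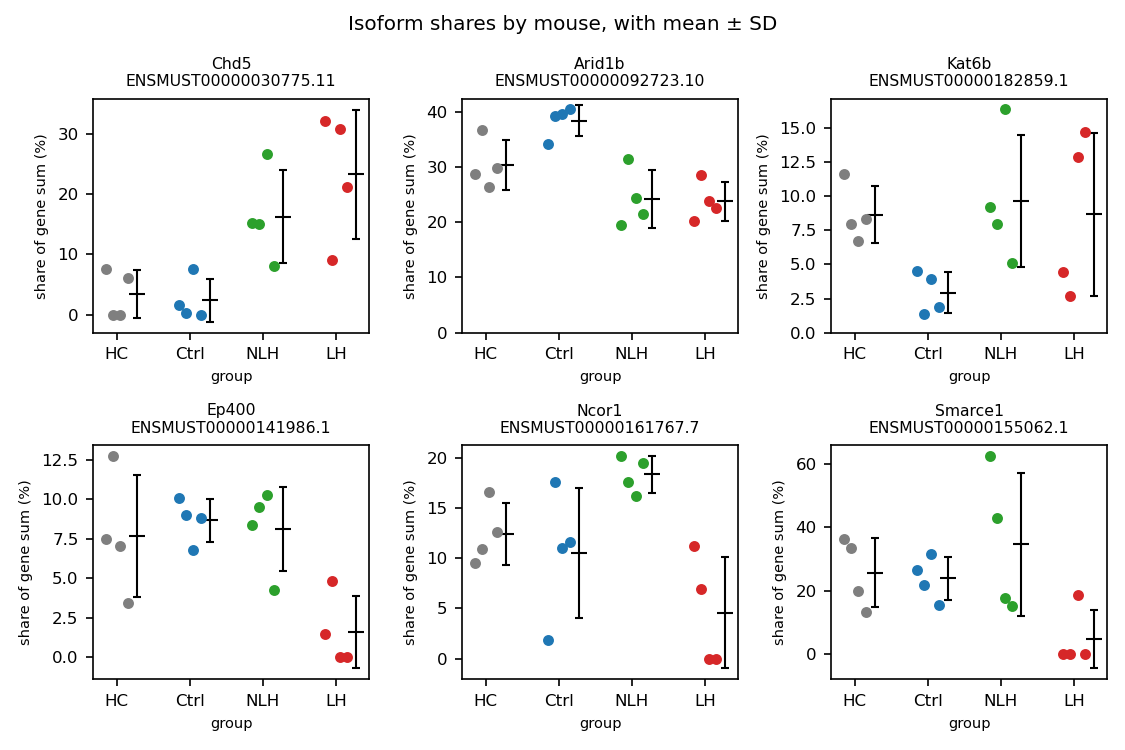
Shares of 6 transcripts in their gene sums (percent) for each mouse by group, with mean ± SD of 4 mice. The Chd5 transcript is above 8% in all 8 NLH and LH mice and below 8% in all HC and Ctrl mice, and the Arid1b transcript lies lower in NLH and LH than in Ctrl.

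Among the 9 acetyltransferases, Crebbp had an unadjusted p under 0.05 in NLH vs. Ctrl, Kat2b in LH vs. NLH and none in LH vs. Ctrl. Crebbp measured 7.27, 7.42, 6.64 and 8.35 FPKM in HC, 6.84, 6.83, 8.27 and 7.24 FPKM in Ctrl, 8.75, 10.6, 9.52 and 9.21 FPKM in NLH and 11.0, 8.61, 7.68 and 6.64 FPKM in LH. The NLH mice were above all HC and Ctrl mice, and LH overlapped both. The difference in NLH was 0.38 ± 0.14 (log2, SE; adjusted p of 0.507 in limma). Its main full-length transcript averaged 4.75 FPKM in Ctrl and 4.91 FPKM in NLH, and 2 others, ENSMUST00000205344.1 and ENSMUST00000205765.1, averaged 0.801 and 1.74 FPKM in Ctrl and 2.23 and 2.35 FPKM in NLH. They were chosen after their values were seen. Ep300, its paralog, spread in LH from 3.03 FPKM (LH 4) to 13.7 FPKM (LH 2).

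Kat2b (PCAF) measured 3.01, 3.07, 3.20 and 3.55 FPKM in HC, 3.70, 4.67, 5.72 and 3.63 FPKM in Ctrl, 3.61, 3.41, 4.50 and 2.32 FPKM in NLH and 4.55, 4.05, 3.62 and 12.9 FPKM in LH. The Ctrl mice were above the HC mice. The difference of 0.67 ± 0.31 in LH vs. NLH (adjusted p of 0.712 in limma) rested on LH 4 and was 0.26 without it and 0.34 without LH 3 and LH 4. In LH 4, 8.05 FPKM came from a retained-intron transcript of 402 bases, and the full-length transcript read 2.83 FPKM there. The former had an estimated 33.0 fragments in LH 4. Kat7 measured 9.31, 12.4, 13.0 and 10.6 FPKM in HC and 11.1, 14.8, 13.9 and 16.7 FPKM in Ctrl, overlapping, with a difference of 0.32 ± 0.19 (adjusted p of 1.00). Kat5 (Tip60), with 1 transcript, was at 8.17e-05 FPKM in LH 4 and at 1.11 to 4.00 FPKM elsewhere. Kat2a, Kat6a, Kat6b and Kat8 had no unadjusted p under 0.05 in any of the 4 comparisons.

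Kat6b had the highest mean gene sum of the acetyltransferases. Its full-length coding transcripts, 24.6% of the sum, averaged 3.28 FPKM, below those of Kat7, Crebbp, Kat6a and Kat2a. Kat6b also held the transcript with the smallest p by share in Ctrl vs. HC, a retained-intron transcript of 2125 bases. Its shares were 11.6%, 7.98%, 6.73% and 8.31% in HC and 4.49%, 1.40%, 3.94% and 1.88% in Ctrl. They were 9.19%, 7.94%, 16.4% and 5.10% in NLH and 4.41%, 2.68%, 12.9% and 14.7% in LH. Ctrl lay below HC and below NLH without overlap. The log2 difference in Ctrl vs. HC was -1.50 ± 0.56 (adjusted p of 1.00 in limma), or -0.63 with a pseudocount of 1. The next 2 by p were both of Chd2. The full-length transcript ENSMUST00000169922.8 made up 6.70%, 0.000717%, 3.91% and 9.08% of the gene in HC and 18.4%, 9.98%, 33.1% and 5.88% in Ctrl, with overlap. The fragment ENSMUST00000200423.1, of 339 bases, made up 55.6%, 63.7%, 52.3% and under 0.001% in HC. In Ctrl it made up 12.1% in Ctrl 1 and under 0.001% in the other 3 mice. Their log2 differences were 1.69 ± 0.76 and -2.77 ± 1.34 (both with an adjusted p of 1.00 in limma), or 0.92 and -1.04 with a pseudocount of 1. At most 17.9 fragments were estimated for the latter in any mouse.

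Ep400, Brd2 and Brd3 had no unadjusted p under 0.05 by gene sum. Ep400, the ATPase of the Tip60 complex, averaged 7.20 ± 1.52 FPKM in Ctrl, 7.25 ± 1.37 FPKM in NLH and 6.55 ± 1.54 FPKM in LH. Its retained-intron transcript of 627 bases made up 10.1%, 9.002%, 6.80% and 8.81% of the sum in Ctrl, 8.38%, 9.50%, 10.3% and 4.28% in NLH and 1.45%, 4.83%, 0% and 0% in LH. All LH mice were below all Ctrl mice. The log2 difference was -1.95 ± 0.48 against Ctrl (adjusted p of 0.155 in limma) and -1.82 ± 0.48 against NLH (adjusted p of 0.215). They were -1.37 and -1.24 without LH 3 and LH 4 (0.393 and 0.521), and -0.50 and -0.45 with a pseudocount of 1. Few fragments stand behind it: an estimated 7.72 to 10.6 in the Ctrl mice and at most 3.95 in the LH mice, and LH 3 and LH 4, both at 0, are the mice with most transcripts at 0. Brd2, a BET reader, averaged 22.3 ± 1.9 FPKM in Ctrl, 25.8 ± 1.9 FPKM in NLH and 24.0 ± 3.9 FPKM in LH, and Brd3 3.43 ± 0.37, 3.66 ± 0.43 and 3.52 ± 0.69 FPKM (SD, n = 4).

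Of the 4 corepressors, Ncor1, the nuclear receptor corepressor that binds the deacetylase Hdac3, had the smallest p of all members in NLH vs. Ctrl. It measured 30.2, 26.8, 29.8 and 25.1 FPKM in HC and 24.1, 32.7, 31.7 and 26.6 FPKM in Ctrl. It measured 47.4, 37.0, 38.5 and 39.6 FPKM in NLH and 44.1, 38.2, 32.3 and 27.2 FPKM in LH. The NLH mice were above all HC and Ctrl mice, and LH 3 and LH 4 lay within the Ctrl range. The difference from Ctrl was 0.50 ± 0.14 in NLH (log2, SE; 1.42-fold; adjusted p of 0.366 in limma) and 0.29 ± 0.14 in LH (adjusted p of 0.382; 0.52 without LH 3 and LH 4, adjusted p of 0.0236). Full-length coding transcripts gave only 7.83% of the sum, and on their own they differed by 0.54 ± 0.18 in NLH and 0.41 ± 0.18 in LH. Sin3a, Sin3b and Rcor1, which scaffold other deacetylase complexes, differed by between -0.25 and 0.20 from Ctrl in NLH and LH, and none had an unadjusted p under 0.05.

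A retained-intron transcript of Ncor1 of 667 bases, ENSMUST00000161767.7, had shares of 9.51%, 11.0%, 16.6% and 12.6% in HC and of 1.89%, 17.6%, 11.0% and 11.7% in Ctrl. Its shares were 20.2%, 17.6%, 16.2% and 19.5% in NLH and 11.2%, 6.97% and, in LH 3 and LH 4, under 0.001% in LH. LH lay below NLH without overlap, with a log2 difference of -3.63 ± 1.06 (adjusted p of 0.250 in limma). It was -1.18 without LH 3 and LH 4 (adjusted p of 0.637). An estimated 94.4 to 136 fragments stood behind it in the NLH mice and at most 65.3 in the LH mice. Smarce1 ENSMUST00000155062.1, a processed transcript of 481 bases, had the smallest p by share in LH vs. NLH. It made up 62.5%, 43.1%, 17.8% and 15.1% of the gene in NLH and 18.5% in LH 3 but under 0.001% in the other LH mice. That difference was -2.53 ± 0.65 (adjusted p of 0.210; -2.98 and 0.273 without LH 3 and LH 4; -0.80 with a pseudocount of 1), on an estimated 17.4 fragments at most in any NLH mouse.

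By isoform share, 130 transcripts of 37 members made up at least 5% of their gene and were tested. At an unadjusted p under 0.05 there were 2 of 130 (1.54%) in Ctrl vs. HC, 1 higher and 1 lower, beside 3.18% of the 25999 transcripts tested (1.59% higher, 1.58% lower). In NLH vs. Ctrl there were 13 (10.0%), 8 higher and 5 lower, beside 5.35% (2.55% and 2.8%). The comparison of LH with Ctrl gave 17 (13.1%), 8 higher and 9 lower, beside 12.8% (5.02% and 7.83%). That of LH with NLH gave 15 (11.5%), 6 higher and 9 lower, beside 11.1% (4.5% and 6.63%). No member transcript passed adjustment in limma, beside 0.00769%, 0.0115%, 0.0615% and 0.0462% of all transcripts in the 4 comparisons in this order. Without LH 3 and LH 4, 15 transcripts (11.5%) had an unadjusted p under 0.05 in LH against Ctrl, beside 10.2% of all, and 12 (9.23%) in LH against NLH, beside 8.95%. Arid1b held the smallest p in NLH vs. Ctrl, with the transcript whose start is the first of the 2 Arid1b starts printed above. It made up 28.8%, 36.8%, 26.4% and 29.8% of the gene in HC and 34.2%, 39.2%, 39.7% and 40.6% in Ctrl. It made up 19.5%, 31.4%, 24.5% and 21.6% in NLH and 20.2%, 28.6%, 23.9% and 22.6% in LH. NLH and LH were both below Ctrl without overlap, and overlapped HC. The log2 differences were -0.94 ± 0.26 in NLH (adjusted p of 0.478) and -0.96 ± 0.26 in LH (adjusted p of 0.172; -0.93 and 0.318 without LH 3 and LH 4). The other start, of ENSMUST00000115799.1, averaged 47.2% in Ctrl, 57.6% in NLH and 58.2% in LH, or 56.3% over LH 1 and LH 2.

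By the methods' t-test on single transcripts, 22 of 279 member transcripts with a test had an unadjusted p under 0.05 in Ctrl vs. HC (14 higher, 8 lower), beside 6.68% of all transcripts (3.85% and 2.83%). In NLH vs. Ctrl there were 28 of 278 (20 higher, 8 lower), beside 7.20% (4.1% and 3.1%). The comparison of LH with Ctrl gave 25 of 279 (10 higher, 15 lower), beside 7.69% (2.89% and 4.8%), and that of LH with NLH 13 of 277 (3 higher, 10 lower), beside 4.47% (1.27% and 3.2%). None passed Benjamini-Hochberg adjustment over all transcripts, which 0.00126%, 0.00379%, 0.00885% and 0% of all transcripts did. When single mice were left out, at most 1 member transcript passed it, in LH vs. Ctrl. With limma on log2(FPKM + 0.1), the counts were 11 in Ctrl vs. HC, 23 in NLH vs. Ctrl, 41 in LH vs. Ctrl and 25 for LH against NLH, of 280 each, beside 3.45%, 5.12%, 10.7% and 8.72% of all transcripts. Without LH 3 and LH 4, the methods' test gave 37 for LH against Ctrl (28 higher, 9 lower; 13.3%, beside 13.7% of all) and 10 for LH against NLH (8 higher, 2 lower; 3.61%, beside 6.39%). The balance of directions turned in both, and so did that of all transcripts, from 2282 higher and 3798 lower to 7652 and 3137 against Ctrl and from 1004 and 2531 to 3475 and 1553 against NLH. After median-ratio scaling it gave 26 in NLH vs. Ctrl (18 higher, 8 lower) and 28 in LH vs. Ctrl (5 higher, 23 lower), beside 7.66% and 8.22% of all transcripts. The background in NLH vs. Ctrl went with this scaling from 3248 higher and 2459 lower to 2426 and 3645.

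Much of the members' sums came from transcripts that do not code for the whole protein. Full-length coding transcripts, whose coding length was at least 90% of the gene's longest, were 78 of the 280 transcripts, and 79 more were retained introns. The full-length share of a member's mean sum had a median of 63.4%, against 81.2% over 10074 genes. It was below 50% in 12 members (30.8%, beside 25.2% of those genes) and at least 90% in 7 (17.9%, beside 40.7%). It was lowest in Smarce1 (3.03%), Chd9 (4.79%), Ncor1 (7.83%) and Chd2 (10.4%) and was 100% in Smarcc2, Smarcd1, Kat6a and Kat5. In 21 of the 39 members the same transcript led in all 16 mice. Over all members, retained introns took 15.8 ± 0.9% of the FPKM in HC mice, 14.3 ± 1.6% in Ctrl mice, 14.5 ± 0.9% in NLH mice and 12.7 ± 1.8% in LH mice (SD, n = 4). Over all genes the same class took 8.67%, 8.46%, 7.79% and 7.76% in this order of groups.

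**Figure D5:**
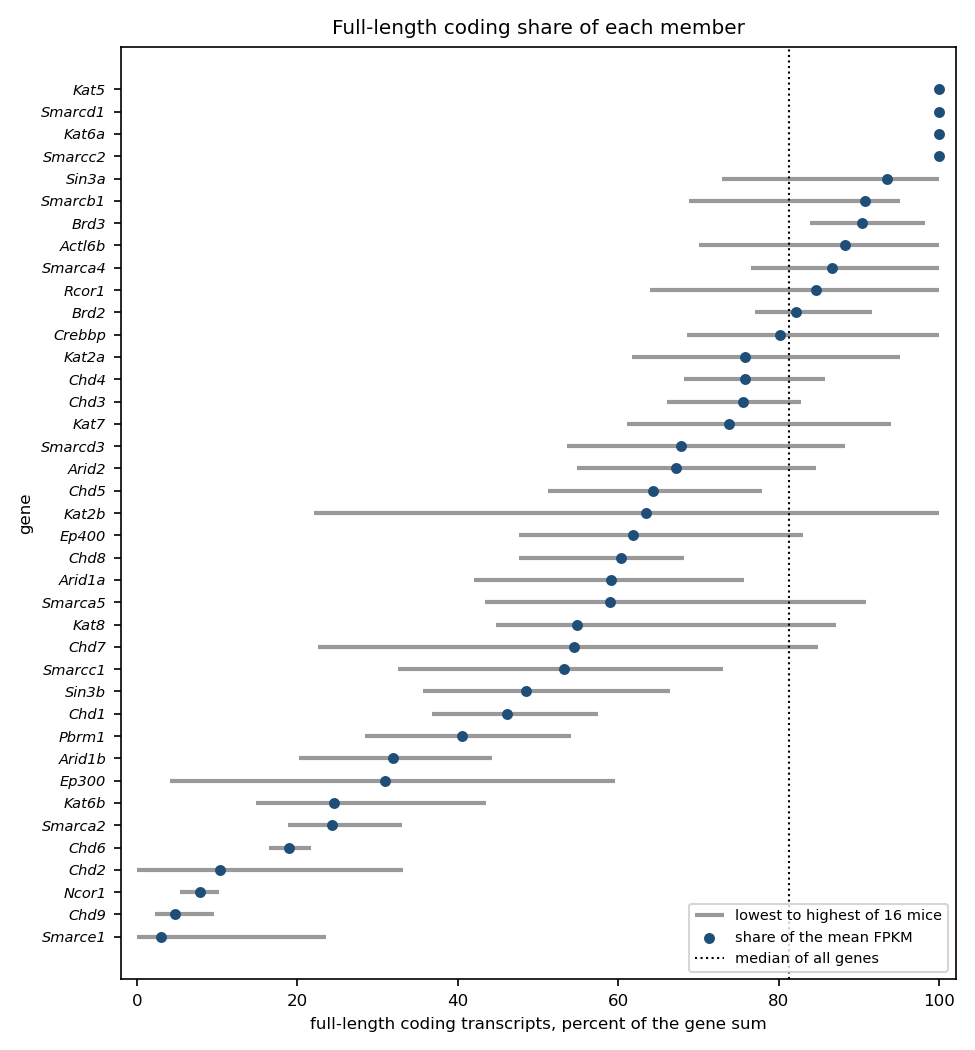
Share of each member's gene sum that came from full-length coding transcripts (percent): points are the share of the mean FPKM, and bars run from the lowest to the highest of 16 mice. Members spread from 3.03% (Smarce1) to 100%, with the dotted line at the median of all genes, 81.2%.

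With the sums limited to full-length coding transcripts, 7 members had an unadjusted p under 0.05 in NLH vs. Ctrl, beside 7.01% of all genes, and 5 in LH vs. Ctrl, beside 12.6%. None did so in Ctrl vs. HC or LH vs. NLH, where 2.67% and 6.54% of all genes did. Higher in NLH were Pbrm1 (0.78 ± 0.24), Ncor1 (0.54 ± 0.18), Chd5 (0.46 ± 0.15), Smarcc2 (0.31 ± 0.12), Smarca2 (0.27 ± 0.11) and Chd4 (0.27 ± 0.12), with the differences on the log2 scale and their SE. Arid1b was lower in NLH (-0.77 ± 0.23) and in LH (-0.51 ± 0.23). Higher in LH were Smarca5, Ncor1, Actl6b (0.36 ± 0.12) and Chd5 (0.34 ± 0.15). The adjusted p-values in limma were between 0.139 and 0.690. These sums were not refitted without LH 3 and LH 4.

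Paralogs stood in the same order in all 16 mice for several pairs, here compared per length as log2 ratios of gene sums without a test. Smarca2 exceeded Smarca4, the alternative SWI/SNF ATPase, by 1.95 ± 0.12 in Ctrl and 2.27 ± 0.23 in LH (2.08 over LH 1 and LH 2), but by 0.20 ± 0.05 in Ctrl, 0.38 ± 0.09 in NLH and 0.24 ± 0.18 in LH when only full-length coding transcripts were counted (SD, n = 4). By that count the NLH mice lay above all Ctrl mice. Chd3 exceeded Chd4, also an ATPase of NuRD, by 1.28 ± 0.10 in Ctrl, 0.91 ± 0.20 in NLH and 0.75 ± 0.56 in LH. The LH mice differed here, at 1.19 in both LH 1 and LH 2, 0.59 in LH 3 and 0.03 in LH 4. Brd2 exceeded Brd3 by 2.57 to 3.06 over all mice. Kat6a was below Kat6b in every mouse by gene sum (-1.43 on average) and above it in every mouse by full-length coding transcripts (0.59). The ratio of Crebbp to Ep300 went both ways by gene sum, and Crebbp was the higher one in 7 of 16 mice. It averaged -0.05 and ran from -0.67 to 1.13, both ends being LH mice. Its mean was lowest for homecage mice (-0.31) and highest for helpless ones (0.36 ± 0.76), with Ctrl at -0.28 and NLH at 0.04. By full-length coding transcripts Crebbp exceeded Ep300 in every mouse, by 1.49 on average. That ratio lay between 0.76 and 1.84 in 15 mice and was 5.44 in LH 4, where Ep300 read 0.124 FPKM by that count.

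Other genes of the same complexes were taken from a list of 104 names, of which 93 could be tested. At an unadjusted p under 0.05 there were 3 in Ctrl vs. HC (3.23%), 6 in NLH vs. Ctrl (6.45%), 9 in LH vs. Ctrl (9.68%) and 4 when LH was set against NLH (4.30%), and none passed adjustment in limma. Over all genes these shares were 2.35%, 7.18%, 13.8% and 6.89%. All 6 in NLH vs. Ctrl were higher in NLH, and of the 9 in LH vs. Ctrl 7 were higher and 2 lower. Brd7 and Phf10, both PBAF subunits, led in NLH vs. Ctrl, with means of 3.67 and 5.16 FPKM for Brd7 (0.48 ± 0.18; adjusted p of 0.507) and of 6.25 and 7.94 FPKM for Phf10 (0.33 ± 0.13; adjusted p of 0.523). In LH vs. Ctrl, Bptf, the largest NURF subunit, averaged 4.79 FPKM in Ctrl and 3.47 FPKM in LH (-0.46 ± 0.13; adjusted p of 0.127) and Brpf3, a scaffold of Kat7 complexes, 2.22 and 3.75 FPKM (0.68 ± 0.19; adjusted p of 0.135). They differed by -0.34 and 0.68 without LH 3 and LH 4, the latter with an adjusted p of 0.0269. Neither held under every summing of transcripts: Bptf differed by -0.02 with unnamed transcripts of its locus added, and Brpf3 by 0.01 with full-length coding transcripts alone. Bcl7b, a BAF subunit, and Mbd2, a methyl-CpG-binding subunit of NuRD, led in Ctrl vs. HC (0.27 ± 0.10 and 0.35 ± 0.15, adjusted p of 1.00 for both). Brd9, a SWI/SNF bromodomain protein, and Ino80, the ATPase of the INO80 complex, led in LH vs. NLH (0.60 ± 0.19 and -0.33 ± 0.15; adjusted p of 0.496 and 0.694). Brd9 differed by 0.09 with unnamed transcripts of its locus added, and without LH 3 and LH 4 the values were 0.59 for Brd9 and -0.06 for Ino80.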

How the data were processed

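RNA-seq of the hippocampus of 16 mice gave FPKM values per transcript, deposited by the authors without scaling between mice. According to the methods, the authors aligned reads to mm10 with HISAT2, merged transcripts with StringTie and quantified them with Cufflinks. The submitters' processing notes name STAR 2.42a, StringTie 1.2.3 and Cufflinks. The limits of the deposited filter are not given in the sources used here. Cufflinks divides fragments among overlapping transcripts by a model, so values of isoforms depend on each other.

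FPKM was summed per gene name. Limma 3.58.1 (R 4.3.3; trend, robust, 4 group means, Benjamini-Hochberg) was fitted to log2(sum + 0.1) for 10436 genes with a mean of at least 1, and to log2 of transcript + 0.1 over the rest of its gene + 0.1 for transcripts of at least 5%. The methods' t-test was run per transcript. Each test was tested on simulated data. Of the 280 transcripts, 266 matched GENCODE vM21 in the same version. Depth was estimated on 1343 loci with 1 transcript over 2000 bases and an assumed fragment length of 200: in each mouse 69.7% to 77.8% of low values lay within 0.1 of a whole fragment. Intervals of counts are not given, and p-values measure the spread between mice. Replicate numbers did not pair the mice (24 same-number pairs, median r of -0.02, 3 over 0.1), and no 2 mice were identical.

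The members and lists were chosen with earlier results of these data known. Every member may be named with its gene sum. Per-mouse values are given for the 3 members and 3 transcripts with the smallest p in each comparison, and partners for the 2 smallest; others named are marked. Of the partner genes, 1 is not reported here. Added after seeing the data were sums with unnamed transcripts of the locus and sums of full-length coding transcripts.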

Additional observations from a re-analysis of the deposited data

Results flagged for a closer look

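Within groups of 4 mice, 14 of 192 groups of values held a mouse set apart from the other 3 by a gap past the 95% limit of Dixon's test, and chance gives about 1 in 20.

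By gene sum, LH 4 stood high for Kat2b (12.9 FPKM against 3.62 to 4.55 in the other LH mice) and Chd7 (3.53 FPKM against 1.13 to 1.42). Ctrl 1 stood low for Arid1a (5.63 FPKM against 7.10 to 7.17) and high for Rcor1 (2.96 FPKM against 2.59 to 2.64). HC 3 stood low for Kat2a (4.48 FPKM against 5.14 to 5.27) and Smarcd1 (7.75 FPKM against 8.95 to 9.15), and HC 4 high for Sin3a (4.55 FPKM against 3.74 to 3.81). NLH 3 stood low for Kat6b (9.33 FPKM against 12.2 to 12.6) and NLH 4 low for Brd2 (23.0 FPKM against 26.5 to 27.2).

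By isoform share, HC 3 stood high for Chd5 ENSMUST00000124423.1 (48.8% against 41.2% to 41.7%), LH 3 for Smarce1 ENSMUST00000155062.1 (18.5%, with the others under 0.001%), and NLH 4 low for Chd2 ENSMUST00000169922.8 (9.89% against 17.9% to 18.1%). The Chd2 fragment ENSMUST00000200423.1 stood at 12.1% in Ctrl 1 and 48.0% in NLH 4, with the other mice of those groups under 0.001%. The cause was not tested for any of these.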

How the results depend on the processing

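Counts are members, or member transcripts, at an unadjusted p under 0.05, with the share of all features in parentheses. With median-ratio size factors, gene sums gave 1 in Ctrl vs. HC (4.99%) and 7 in LH vs. Ctrl (20.3%; 3 higher, 4 lower, against 3 and 1 before). LH vs. NLH then had 0 above and 2 below (11.7%), against 1 and 1. Gene sums of only the 2 groups compared gave 3 in Ctrl vs. HC (11.0%) and 0 in LH vs. NLH (2.68%), the methods' t-test on sums gave 1 in Ctrl vs. HC (10.6%), adding unnamed transcripts of the locus gave 2 in LH vs. Ctrl (15.8%), and full-length coding sums gave 0 in LH vs. NLH (6.54%). Without LH 3 and LH 4 they gave 17 for LH against Ctrl (35.0%) and 4 for LH against NLH (20.5%). Isoform shares in Ctrl vs. HC gave 1 (3.07%) with a pseudocount of 0.01, 5 (3.29%) with a pseudocount of 1 and 13 (6.73%) with only the 2 groups. A mean share of at least 1%, which raised the member transcripts tested from 130 to 224, gave 6 (3.38%), 22 (5.25%), 30 (12.1%) and 25 (10.5%) in Ctrl vs. HC, NLH vs. Ctrl, LH vs. Ctrl and LH vs. NLH. Only the 2 groups gave 6 in LH vs. NLH (5.83%). Transcript FPKM gave 11 (3.45%), 41 (10.7%) and 25 (8.72%) by limma in Ctrl vs. HC, LH vs. Ctrl and LH vs. NLH, and 12 (12.1%) and 4 (4.63%) of 99 at a mean FPKM of at least 1 in the last 2. The replicate block, for numbers that do not pair the mice, gave 1 for gene sums in LH vs. NLH (6.55%) and 14 for transcript FPKM in Ctrl vs. HC (5.08%), and moved no other count by over 1.5 times.

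Leaving out single mice gave 0 to 2, 2 to 7, 2 to 12 and 1 to 6 for gene sums in Ctrl vs. HC, NLH vs. Ctrl, LH vs. Ctrl and LH vs. NLH. For isoform shares it gave 0 to 6, 7 to 16, 14 to 28 and 9 to 23, and for transcript FPKM 13 to 28, 21 to 34, 16 to 25 and 8 to 20. These ranges are of members or member transcripts alone, and the share over all features changed between the same fits. By gene sum in Ctrl vs. HC, for instance, 0 members stood beside 1.59% without HC 2 and beside 2.44% without HC 4. In gene sums of NLH vs. Ctrl the count was 2 without Ctrl 1 (4.61%) and 3 without NLH 2 (5.06%) or NLH 3 (4.92%), and in LH vs. Ctrl it was 2 without Ctrl 1 (9.75%), 7 without LH 3 (14.7%) and 12 without LH 4 (23.2%; 2226 genes higher, 193 lower). In LH vs. NLH it was 1 without any HC mouse, Ctrl 1, Ctrl 2, NLH 1 or NLH 4 (5.16% to 8.32%), 4 without LH 1 (10.8%) and 6 without LH 2 (13.8%). Shares without LH 2 gave 28 for LH against Ctrl (17.7%) and 23 for LH against NLH (15%), and they gave 9 for the latter without NLH 4 (8.58%). In NLH vs. Ctrl, shares gave 7 without Ctrl 1 (4.21%) and 8 without Ctrl 3 (4.55%). Transcript FPKM gave 13 in Ctrl vs. HC without HC 3 (5.82%), 16 for LH against Ctrl without Ctrl 1 (5.81%) and, for LH against NLH, 8 without NLH 4 (3.30%) and 20 without NLH 1 (5.46%).

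Of the named genes, Chd8 in LH vs. NLH (-0.0462) changed sign when only full-length coding transcripts were summed. Ep400 ENSMUST00000141986.1 in LH vs. Ctrl passed adjustment without LH 2 (adjusted p of 0.0357 in limma), and Brpf3 in LH vs. Ctrl passed without LH 4 (0.83) and without LH 3 and LH 4 (0.68). The other genes and transcripts named by the smallest p kept their sign and side of the threshold, but Ncor1, Pbrm1, Chd6, Smarca5 and Crebbp, listed in the report, passed in LH vs. Ctrl without LH 3 and LH 4. Of 32 values named by the smallest p, 24 became over 1.5 times smaller under at least 1 alternative. With full-length coding transcripts alone, Smarca2 differed by 0.18 and Chd8 by 0.01 in LH vs. Ctrl, Crebbp by 0.16 in NLH vs. Ctrl, Kat2b by 0.07 in LH vs. NLH and Chd9 and Kat7 by 0.06 and 0.21 in Ctrl vs. HC. With unnamed transcripts of the locus added, Actl6b differed by 0.23 in LH vs. Ctrl, Smarce1 by -0.25 in LH vs. NLH and Smarcc1 and Mbd2 by 0.13 and 0.21 in Ctrl vs. HC. With a pseudocount of 1, the Chd5 share differed by 1.18 in NLH and 1.64 in LH from Ctrl and the Ep400 share by -0.50. The cause was not tested.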
